A study of Mus musculus with 2 samples.

Results

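The 10 genes described here encode granule proteins of the neutrophil and the pair of S100 proteins that fills its cytosol: Mpo, Elane, Prtn3 and Ctsg of the primary granules, Ltf, Camp, Ngp and Lcn2 of the secondary granules, and S100a8 and S100a9. They were matched by symbol among the 27998 genes of the count tables. They were chosen for what they encode, not for their values, though earlier results of these data were known. Their RNA was followed in 478 cells with at least 1 molecule of Ptprc, the gene of the pan-leukocyte protein CD45. It was also followed in mesenchymal and erythroid cells. The cells came from Gli1-CreERT2; Ai9 mice of mixed background. In these mice tamoxifen switches on the red protein tdTomato in cells that express Gli1 and in their descendants. All mice were 1 month old, received tamoxifen on 3 days, and then received 3 daily injections of vehicle or of teriparatide, a parathyroid hormone fragment, at 400 ng per g of body weight. Cells of the femoral metaphysis were sorted as tdTomato+CD31-CD45-Ter119-, a gate that should remove cells with CD45, the product of Ptprc, or with Ter119, and 1 library of the 10x platform was made per condition, for which the methods of the study give 5 mice (3 male and 2 female). Pooling of the mice is not stated, and the methods speak of a matrix for every mouse, whereas the data used here hold 1 matrix per condition with no map from cells to mice. Each captured RNA molecule carries a unique molecular identifier (UMI), and levels are given as UMIs per 1000000 UMIs (CPM), which count molecules at their 3′ end and are not divided by gene length. With 1 library per condition there is no replicate error and no test, and the 95% intervals printed in parentheses cover counting error only.

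A neutrophil fills its granules in the order in which it makes their proteins. Promyelocytes make the serine proteases and myeloperoxidase of the primary, or azurophil, granules. Myelocytes and metamyelocytes then stop this program and make the iron-binding and antimicrobial proteins of the secondary, or specific, granules, a step that needs the transcription factor C/EBP epsilon. S100a8 and S100a9, which pair to form calprotectin and are not packed into granules, stay high in the segmented cell when the granule genes have been shut off. The RNA that a single neutrophil still carries therefore marks its stage.

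The vehicle library held 1286 barcodes with 10567335 UMIs and the teriparatide library 2142 barcodes with 26270041 UMIs, and they shared 2 barcodes. Of these, 549 and 1217 barcodes passed the limits on genes and mitochondrial UMIs. Ptprc was detected in 63 of the vehicle cells (11.5%, 8.93 to 14.4) and in 415 of the teriparatide cells (34.1%, 31.4 to 36.8), with a median of 7924 and 12000 UMIs per cell. Y-linked transcripts and Xist called 21 male and 20 female cells among the Ptprc cells of the vehicle library and 212 and 72 among those of the teriparatide library. The 10 genes made up 15.3% of the UMIs of the vehicle Ptprc cells and 24.7% of those of the teriparatide Ptprc cells. The Ptprc cells held 93.6% and 94.2% of all UMIs of the 10 genes in the whole libraries. Markers of other sorted classes were present as well. The 13 mesenchymal markers summed to 1176 CPM in the vehicle and 883 CPM in the teriparatide Ptprc cells, with 9 and 13 of them detected, and Lepr, Pdgfra, Pdgfrb and Col3a1 were at 0 in the vehicle cells. The 12 erythroid markers summed to 27.7 and 3932 CPM, with 4 and 12 detected. In the teriparatide library the median Ptprc cell gave 0.0122% of its UMIs to them and the highest cell 64.2%. Alas2, Klf1 and Gata1 were among the 8 at 0 in the vehicle cells.

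Several of the genes are neighbours in the genome. Elane (ENSMUSG00000020125, chr10:79886247-79888215, plus strand) and Prtn3 (ENSMUSG00000057729, chr10:79874476-79883174, plus strand) lie 3.07 kb apart, and S100a8 (ENSMUSG00000056054, chr3:90668978-90670035, plus strand) and S100a9 (ENSMUSG00000056071, chr3:90692632-90695721, minus strand) lie 22.6 kb apart. On chromosome 9, Camp (ENSMUSG00000038357, chr9:109847379-109849617, minus strand) is 570.1 kb from Ngp (ENSMUSG00000032484, chr9:110419747-110423012, plus strand), which is 596.3 kb from Ltf (ENSMUSG00000032496, chr9:111019271-111042767, plus strand). Mpo (ENSMUSG00000009350, chr11:87793581-87804413, plus strand), Ctsg (ENSMUSG00000040314, chr14:56099881-56102574, minus strand) and Lcn2 (ENSMUSG00000026822, chr2:32384633-32388252, minus strand) stand alone. Positions follow GENCODE vM21 on the assembly GRCm38, which is the mm10 build of the count tables, and each spans the whole gene with its exons, introns and UTRs.

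The promoters of 4 members are shown, Elane and Prtn3 because these neighbours hold the same pair of motifs, and Ltf and Ngp because they hold the C/EBP pattern close to the start. Each line gives the 150 bases before the RefSeq transcription start on GRCm38.p6, 5′ to 3′ on the strand of the gene. For Elane (chr10:79886162-79886311, plus strand) and Prtn3 (chr10:79879517-79879666, plus strand), the capitals mark the PU.1 core GAGGAA and the Myb core AACGG. For Ltf (chr9:111019142-111019291, plus strand) and Ngp (chr9:110419658-110419807, plus strand), they mark the C/EBP pattern TTGCNNAA on either strand.
Elane: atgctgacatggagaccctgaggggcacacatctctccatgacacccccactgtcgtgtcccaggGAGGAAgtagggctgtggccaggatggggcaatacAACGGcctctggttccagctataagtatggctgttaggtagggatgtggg
Prtn3: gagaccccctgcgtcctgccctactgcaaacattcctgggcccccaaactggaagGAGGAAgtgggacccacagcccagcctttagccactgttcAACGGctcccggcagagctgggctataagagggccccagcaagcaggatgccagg
Ltf: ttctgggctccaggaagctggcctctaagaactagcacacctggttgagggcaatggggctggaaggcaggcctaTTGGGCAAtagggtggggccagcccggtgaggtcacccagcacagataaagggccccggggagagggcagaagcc
Ngp: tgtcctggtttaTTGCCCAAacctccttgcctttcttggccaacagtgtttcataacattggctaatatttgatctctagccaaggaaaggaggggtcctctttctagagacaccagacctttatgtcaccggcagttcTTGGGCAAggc
In Elane the PU.1 and Myb cores began 85 and 50 bases before the start, and in Prtn3 they began 95 and 55 bases before it, in the same order and on the same strand. Among the 10 members these were the only promoters with the Myb core within 250 bases. Over both strands, 14.5% of 32851 RefSeq promoters held AACGG within 250 bases, 23.3% held GAGGAA and 3.33% held both. The C/EBP pattern, in 9.56% of all promoters, was found in 4 members: at 75 bases in Ltf, at 138 and 11 bases in Ngp, at 216 bases in Lcn2 and at 236 bases in S100a9. The PU.1 core was found in 7 members (Mpo, Elane, Prtn3, Ctsg, Ltf, Lcn2 and S100a8). TGTGGT, a Runx core present in 14.05% of promoters, was found in Ctsg and S100a9. These matches describe letters and not binding. The first GENCODE start lies upstream of the RefSeq start by 65 bases in Elane, 21 in Ltf, 61 in Ngp and 5191 in Prtn3, so for Prtn3 the window lies inside the longest annotated gene model.

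All kept cells were clustered with the 10 genes left out of the variable genes. The 10 genes still counted in the UMI total by which each cell was scaled. Of 16 clusters, 3 carried neutrophil markers and held 29 of the vehicle Ptprc cells (46.0%, 33.4 to 59.1) and 232 of the teriparatide Ptprc cells (55.9%, 51.0 to 60.7). The cluster led by Fcnb and Ms4a3 was immature neutrophil-like: 7 of 7 markers of immature neutrophils and 4 of 6 of promyelocytes marked it, and it held 8 vehicle and 53 teriparatide Ptprc cells. The cluster led by Mmp9, Retnlg, Mmp8 and Ly6g carried 8 of 9 markers of mature and 7 of 7 of immature neutrophils in its 13 and 142 cells. The cluster led by Cxcl2 and Il1b was mature neutrophil-like, with 9 of 9 mature markers, and held 8 and 37 cells. A further cluster, led by Ms4a6c and Ccr2, carried 8 of 9 monocyte markers and held 21 and 147 Ptprc cells. The label of the gene set as stage markers could thus be read against cells ordered by genes outside it. Some of these, among them Fcnb, Chil3, Cd177 and Mmp8 of the secondary and Prss57 of the primary granules, are granule genes themselves. They were not kept out of the clustering. The course of the 10 genes along the order below was therefore partly set in advance. The order used below, from the Fcnb and Ms4a3 cluster through the Mmp8 and Ly6g cluster to the Il1b and Cxcl2 cluster, follows those markers, and the median depth went along it from 23975.5 to 7929 to 3911 UMIs in the vehicle and from 32594 to 11897.5 to 5302 UMIs in the teriparatide cells.

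**Figure D1:**
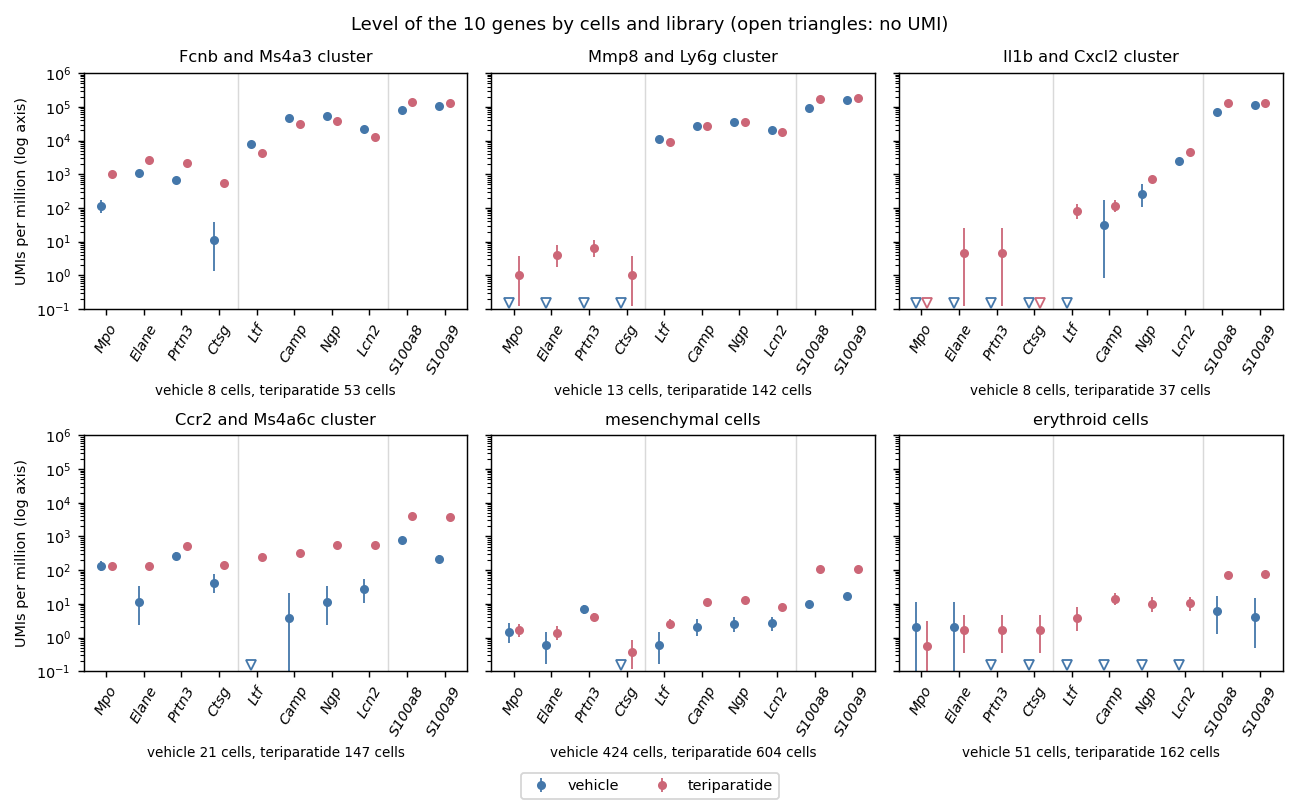
Level of each of the 10 genes in UMIs per 1000000 (log axis) by group of cells, with vehicle in blue, teriparatide in red, bars for the exact Poisson 95% interval and open triangles for no UMI. The primary granule genes are found in the Fcnb and Ms4a3 and the Ccr2 and Ms4a6c clusters, the secondary granule genes drop at the Il1b and Cxcl2 cluster, and S100a8 and S100a9 are the highest members in all 3 neutrophil clusters.

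Among the 3 neutrophil clusters, all 4 primary granule genes were highest in the Fcnb and Ms4a3 cluster and nearly absent from the later ones. The Ccr2 and Ms4a6c cluster held them too, and in the vehicle library it held more Mpo (136 CPM, 35 UMIs of 1 cell) and Ctsg (42.8 CPM, 11 UMIs) than the Fcnb and Ms4a3 cluster. Elane, neutrophil elastase, had 1077 CPM (932 to 1238) in the vehicle cells of that cluster and 2668 CPM (2593 to 2746) in its teriparatide cells. In the Mmp8 and Ly6g cluster it had 0 UMIs in 13 vehicle cells, which allows up to 29.0 CPM, and 8 UMIs in 142 teriparatide cells, or 4.09 CPM. Prtn3, proteinase 3, went from 683 and 2167 CPM to 0 UMIs in the vehicle and 6.65 CPM in the teriparatide cells of the same clusters. Mpo, which makes hypochlorous acid, stood at 115 and 1016 CPM in the earlier cluster, and Ctsg, cathepsin G, at 10.9 and 534 CPM, the first of these from 2 UMIs of 1 cell. The later cluster held 2 UMIs of each in the teriparatide library and none in the vehicle library. In the teriparatide library the earlier cluster was thus higher by 993-fold for Mpo, 652-fold for Elane, 326-fold for Prtn3 and 522-fold for Ctsg. The log2 difference was -9.35 (-10.56 to -8.37) for Elane and -8.35 (-9.26 to -7.57) for Prtn3, while Mpo and Ctsg, with 2 UMIs each in the later cluster, had -9.96 (-13.00 to -8.10) and -9.03 (-12.07 to -7.17). Of 4827 genes with enough UMIs, 27.4% were lower 2-fold or more at this step, against 4 of the 10 members. In the Il1b and Cxcl2 cluster, 1 UMI of Elane and 1 of Prtn3 were all that the 45 cells of both libraries held.

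Within the Fcnb and Ms4a3 cluster the primary granule genes were uneven, and the cells rich in them were poor in Ltf. The 4 genes made up 0 to 1.09% of the UMIs of the 8 vehicle cells, with a median of 0.0106%, and 0 to 4.62% in the 53 teriparatide cells, with a median of 0.0113%. In 9 cells of both libraries they exceeded 1%, with a median of 3.11%. In these cells Ltf, the iron-binding lactoferrin, stood at 24.97 CPM, and the median cell had none. In the 18 cells with no primary granule UMI, Ltf stood at 8449 CPM. Lcn2, the siderophore-binding lipocalin, followed Ltf with 891 CPM in the rich cells and 17753 CPM in the cells without. Camp stood at 10211 and 43984 CPM and Ngp at 15897 and 44257 CPM in the same groups. The sums of the rich cells cover unlike cells. The 4 secondary granule genes together made up 0.0605% of the UMIs of the cell richest in primary granule RNA (4.62%). They made up 0.0520% in a cell with 4.14% and 9.37% in the vehicle cell with 1.09%. The 8 cells between 0.1 and 1% held 705 CPM of Ltf, 29823 CPM of Camp and 39458 CPM of Ngp. Among cells ordered in this way, Camp and Ngp were thus abundant in some cells where Ltf was low and scarce in others. The S100 pair made up a median of 11.7% of the UMIs in the rich cells and 29.1% in the cells without. Ms4a3, a marker of granulocyte-monocyte progenitors that was not used to order the cells, stood at 1562 CPM in the rich cells and 36.5 CPM in the others, and Fcnb at 2023 and 482 CPM. The cells were grouped by their primary granule RNA, so its own values here are a description, and the shares of one gene lower those of the others.

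The secondary granule genes were abundant in the first 2 neutrophil clusters of both libraries, and all but Lcn2 were at or under 719 CPM in the last. Camp, the cathelicidin antimicrobial peptide, stood at 45513 CPM in the vehicle and 32106 CPM in the teriparatide cells of the Fcnb and Ms4a3 cluster and at 26948 and 27144 CPM in the Mmp8 and Ly6g cluster. It then stood at 31.9 CPM, a single UMI, in the 8 vehicle cells and at 118 CPM in the 37 teriparatide cells of the Il1b and Cxcl2 cluster. Ngp, neutrophilic granule protein, went from 52754 and 37792 CPM through 34859 and 34986 CPM to 255 and 719 CPM. Ltf differed from Camp and Ngp in that it was highest in the middle cluster of both libraries. It stood at 7842 and 4328 CPM, then 11019 and 8879 CPM, then no UMI and 80.4 CPM. Lcn2, given below, was highest in the middle cluster in the teriparatide library only. From the first to the second cluster the log2 difference of Ltf was 0.49 (0.38 to 0.60) among vehicle cells and 1.04 (1.00 to 1.08) among teriparatide cells. At the same step Camp stood at -0.76 (-0.82 to -0.69) and -0.24 (-0.26 to -0.23). As each cell of the second cluster held fewer UMIs, a teriparatide cell carried 144 Ltf molecules on average in the first and 122 in the second cluster, and 1067 and 373.6 molecules of Camp. The higher share of Ltf was therefore a higher share of a smaller pool.

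Lcn2 outlasted the other secondary granule genes. It stood at 21904 and 12487 CPM, then 20277 and 18568 CPM, and still at 2521 and 4557 CPM in the Il1b and Cxcl2 cluster, where 7 of 8 vehicle and 31 of 37 teriparatide cells held it. At this last step the teriparatide library had 229.7-fold less Camp, 110.5-fold less Ltf, 48.7-fold less Ngp and 4.07-fold less Lcn2. The vehicle library had 137-fold less Ngp and 8.04-fold less Lcn2, with Camp at a log2 difference of -9.72 (-15.03 to -7.24) from a single UMI. Ranked by the size of this step, Camp and Ltf came before Ngp and Ngp before Lcn2 in the teriparatide library, where the log2 intervals of Ngp (-5.84 to -5.38) and Lcn2 (-2.12 to -1.93) do not meet. Those of Camp (-8.47 to -7.28) and Ltf (-7.57 to -6.11) overlap. In the vehicle library Ltf was at 0 UMIs, and the intervals of Camp and Ngp overlap. The share of all genes that were lower 2-fold or more here was 15.1% of 3063 in the teriparatide and 18.3% of 300 in the vehicle library, against 4 of the 6 members with enough UMIs in each. This step rests on the split between the Mmp8 and Ly6g and the Il1b and Cxcl2 clusters. With a mitochondrial limit of 20% no cluster led by Cxcl2 or Il1b formed, so the step was not measured there.

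As shares of all UMIs, S100a8 and S100a9 stayed high through all 3 clusters. S100a9 stood at 104623 CPM in the vehicle and 128562 CPM in the teriparatide cells of the first cluster, at 164052 and 179633 CPM in the second and at 110593 and 128165 CPM in the third. S100a8 stood at 78593 and 136698 CPM, then 94517 and 177538 CPM, then 69324 and 127135 CPM. Both shares were at their highest in the Mmp8 and Ly6g cluster in each library, and the last step lowered them by no more than 1.40-fold in the teriparatide and 1.48-fold in the vehicle library. Molecules per cell fell more. S100a8 had 346980 UMIs in 142 teriparatide cells of the second cluster and 26892 in 37 of the third. In the vehicle library it had 9761 UMIs in 13 cells and 2172 in 8. In single cells of the middle cluster the pair made up 18.6 to 31.7% of all UMIs in the vehicle library (median 27.1%) and 6.12 to 48.7% in the teriparatide library (median 34.8%). In the last cluster the medians were 19.6% and 25.4%, when the secondary granule genes together held a median of 0.177% and 0.2996%.

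In the Ccr2 and Ms4a6c cluster, Prtn3 was the most abundant of the 4 primary granule genes in both libraries. Prtn3 was seen in 6 of 21 vehicle cells (28.6%) and in 70 of 147 teriparatide cells (47.6%, 39.3 to 56.0), at a median depth of 9669 and 12809 UMIs. For comparison, 46 of 604 mesenchymal cells (7.62%) and 3 of 162 erythroid cells (1.85%) of the teriparatide library held it, at a median of 21328.5 and 10232 UMIs. Its level in the cluster was 268 CPM (209 to 340) for vehicle and 537 CPM (506 to 569) for teriparatide. Over both libraries Prtn3 gave 57.4% of the primary granule UMIs there (55.3 to 59.5), against 34.0% (33.1 to 34.9) in the Fcnb and Ms4a3 cluster, where Elane was the most abundant of the 4. In the teriparatide library Ngp (565 CPM) and Lcn2 (554 CPM) had counting intervals that overlapped that of Prtn3, and the secondary granule and S100 UMIs of this cluster came from few cells: 5 of the 147 teriparatide cells held 90.7% of its secondary granule UMIs, and the median cell gave 0.0257% of its UMIs to the S100 pair. Some cells held S100a8 with little S100a9. Among cells with at least 20 UMIs of the pair, 2 of 3 vehicle and 9 of 19 teriparatide cells of this cluster had over 85% of them from S100a8, and no cell of the neutrophil clusters did.

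Cells were also sorted by which group held over 50% of their UMIs of the 10 genes, among Ptprc cells with at least 10 such UMIs. The S100 pair led in 32 of 35 vehicle cells (91.4%, 76.9 to 98.2) and 259 of 295 teriparatide cells (87.8%, 83.5 to 91.3). The primary granule genes led in 3 vehicle cells (8.57%, 1.80 to 23.1) and 20 teriparatide cells (6.78%, 4.19 to 10.3), and all of these but 1 were in the Ccr2 and Ms4a6c cluster. The secondary granule genes led in no vehicle cell, with an upper bound of 10.0%, and in 9 teriparatide cells (3.05%, 1.40 to 5.71). In 7 teriparatide cells no group passed 50%. Near the limit, between 40 and 60%, lay 6 vehicle cells for the secondary and 6 for the S100 group, and 10, 4 and 8 teriparatide cells for the primary, secondary and S100 groups. These classes are ranges of a share and not cell types.

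**Figure D2:**
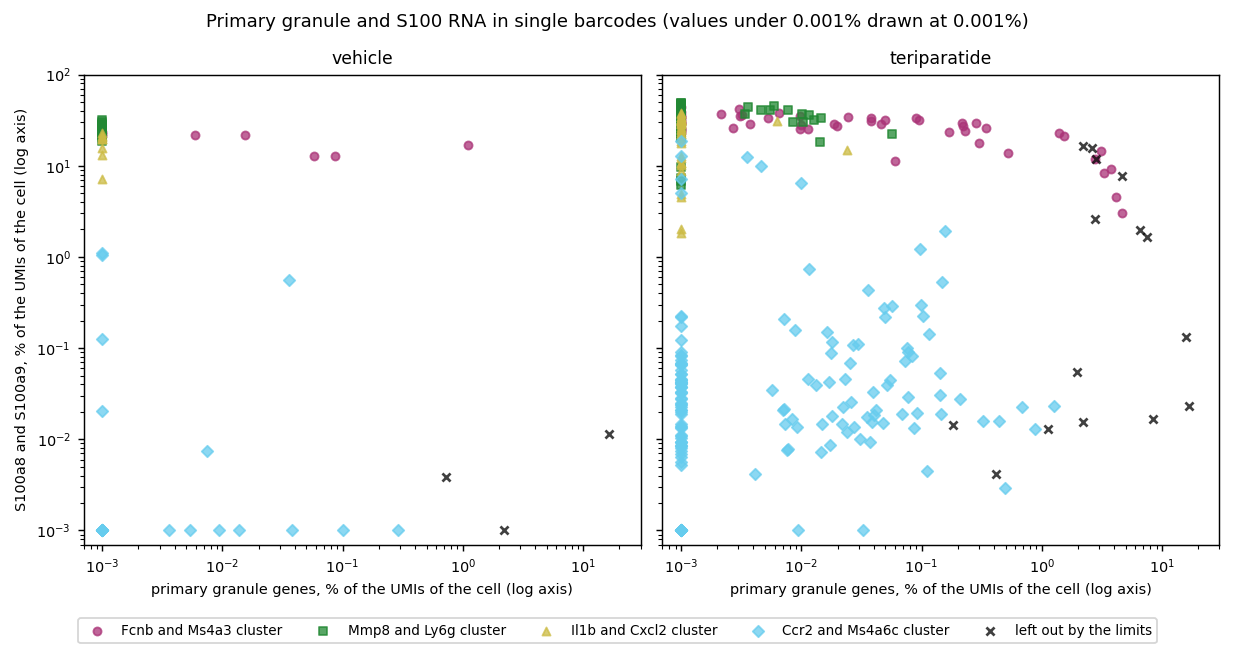
Share of the UMIs of a barcode from the 4 primary granule genes (horizontal, log axis) and from S100a8 and S100a9 (vertical, log axis) in the vehicle and the teriparatide library, with 1 point per barcode and values under 0.001% drawn at 0.001%. Crosses are barcodes that the limits left out and that held at least 50 primary granule UMIs, and they reach up to 16.3% with vehicle and 16.8% with teriparatide, above every kept cell.

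The study set cells with teriparatide against cells without, after leaving out hematopoietic cells with Ptprc as residual contamination. For the 10 genes the contrast is given here over all kept Ptprc cells, which the comparison of the study did not cover. The secondary granule genes differed least: Ltf stood at 3954 CPM in the vehicle and 3989.6 CPM in the teriparatide cells, Camp at 17077 and 17249 CPM, Ngp at 20382 and 21312 CPM, and Lcn2 at 9509 and 9448 CPM. Their summed log2 ratio of teriparatide to vehicle was 0.03 (0.01 to 0.05). The S100 pair was higher in the teriparatide cells, S100a8 at 97505 against 40752 CPM and S100a9 at 95887 against 60859 CPM, or log2 ratios of 1.26 (1.24 to 1.28) and 0.66 (0.64 to 0.67). Among the primary granule genes Mpo stood at 86.1 and 323 CPM, Elane at 307 and 779.6 CPM, Prtn3 at 298 and 777 CPM, and Ctsg at 20.0 and 193 CPM. The log2 ratios were 1.91 (1.53 to 2.32) for Mpo, 1.34 (1.14 to 1.55) for Elane, 1.38 (1.17 to 1.60) for Prtn3 and 3.27 (2.49 to 4.19) for Ctsg. Thus 5 of the 10 members were higher 2-fold or more and none was lower, where 2.95% of 7728 genes were higher and 7.49% lower, and the median log2 ratio was 0.96 over the members and -0.30 over all genes. This count differed with the limits on barcodes and with the sex of the cells taken. Without the upper limit on genes, S100a8 (log2 ratio 1.42) was the 1 member at 2-fold or more. With no limits S100a8 (1.43) was that much higher and Ctsg (-1.26) that much lower. In male cells alone Ctsg (1.72) and S100a8 (1.33) were that much higher, and Mpo (0.36), Elane (0.21) and Prtn3 (0.56) were not. In female cells alone, among members with a ratio, Elane (7.14), Prtn3 (3.68), Ctsg (6.93) and S100a8 (1.21) were. The share of all genes called was not computed for these sets of cells. The Ptprc cells were deeper, more often male and, in the sum over cells, richer in erythroid markers in the teriparatide library, as given above. The part of these differences in the ratios was not tested. More cells with a gene and more RNA of it per cell cannot be told apart in such sums: S100a8 was seen in 34 of 63 vehicle cells (54.0%) and 360 of 415 teriparatide cells (86.7%), but also in 5.90% and 70.2% of the mesenchymal cells.

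The ratio of the primary granule genes turned with the limits on barcodes. In the vehicle library 5 cells held 95.2% of the primary granule UMIs of the kept Ptprc cells, and in the teriparatide library 5 cells held 60.3%. The limits left out 3 vehicle barcodes with at least 50 such UMIs, 2 with over 6000 genes and 1 with over 10% mitochondrial UMIs. Together these 3 held 3559 primary granule UMIs, against 463 in the 63 kept cells. In the teriparatide library 15 such barcodes were left out, 9 for their genes and 6 for their mitochondrial share, with 15200 UMIs against 13255 in the 415 kept cells. The kept Ptprc cells thus held 11.3% of the primary granule UMIs of the vehicle and 45.5% of those of the teriparatide library, but 98.1% and 97.2% of the secondary granule and 96.3% and 94.5% of the S100 UMIs. Without the upper limit on genes the log2 ratio of the group went from 1.54 (1.41 to 1.68) to 0.17 (0.11 to 0.23), and with no limits it was -0.38 (-0.42 to -0.33). With no limits Mpo (-0.84), Prtn3 (-0.20) and Ctsg (-1.26) stood lower in the teriparatide library and Elane (0.14) higher, while the secondary granule genes had 0.16 and the S100 pair 1.10. No direction is therefore given for the primary granule genes between the libraries.

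**Figure D3:**
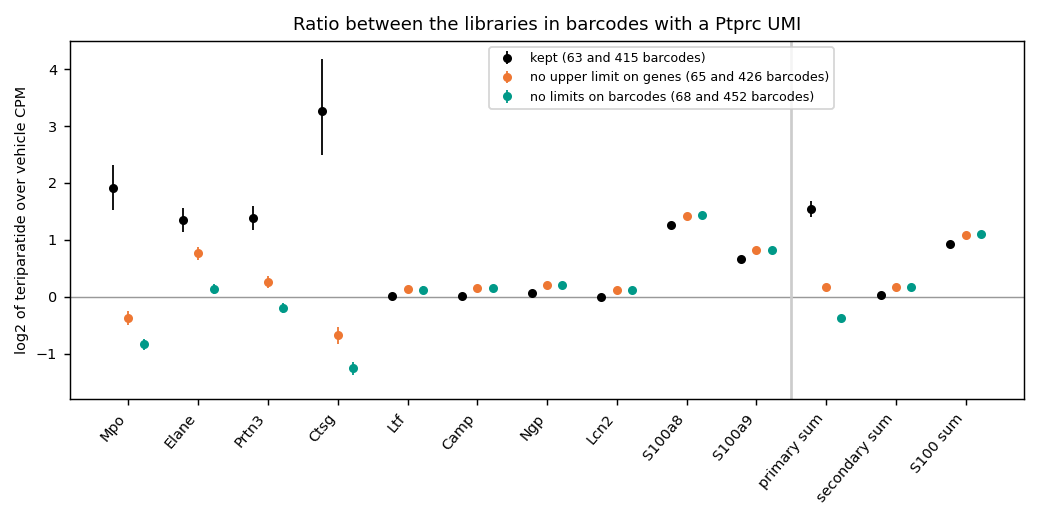
Log2 ratio of teriparatide to vehicle CPM in Ptprc barcodes for each gene and for the 3 groups, with 95% counting intervals, for kept barcodes (black), without the upper limit on genes (orange) and with no limits (teal). The primary granule ratio moves from 1.54 to 0.17 and -0.38, and the other groups keep their direction.

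The barcodes that the limits left out included the ones richest in primary granule RNA. Of the 18 with at least 50 such UMIs, 16 had a Ptprc UMI, and the 4 genes made up 0.725 to 16.3% of the UMIs in the vehicle barcodes (median 2.19%) and 0.183 to 16.8% in the teriparatide barcodes (median 2.77%). Those above the richest kept Ptprc cell of either library (4.62%) were all left out for their mitochondrial share. They had 18.3 to 34.9% mitochondrial UMIs and a depth of 1632 to 8827 UMIs. The barcodes left out for over 6000 genes reached at most 4.62%. None of the 18 held a single Ltf UMI. Camp and Ngp were also at or near 0 in many of them. The vehicle barcode at 16.3% held 0 and 2 UMIs of these, and the teriparatide barcode at 16.8% held none. Others held both, up to 882 UMIs of Camp and 1112 of Ngp in a teriparatide barcode. Of the 18, 3 vehicle and 10 teriparatide barcodes had under 50 UMIs of the S100 pair, and 5 teriparatide barcodes had more. In the 11 teriparatide barcodes with over 6000 genes and a Ptprc UMI, Elane (5424 UMIs) and Prtn3 (4028 UMIs) led, followed by Mpo (2478 UMIs) and Ctsg (1183 UMIs). In the 2 vehicle barcodes of that kind the counts were closer together, with 476 UMIs of Elane, 634 of Prtn3, 594 of Mpo and 413 of Ctsg. A limit on genes per barcode is meant to remove doublets. Whether these barcodes were doublets was not tested here.

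The same comparison within a cluster kept the direction of the S100 difference at a smaller size and split the others. S100a8 had a log2 ratio of 0.80 (0.77 to 0.82) in the Fcnb and Ms4a3 cluster, 0.91 in the Mmp8 and Ly6g cluster and 0.87 in the Il1b and Cxcl2 cluster, and S100a9 had 0.30, 0.13 and 0.21. The secondary granule genes stood at -0.56 in the first, -0.06 in the second and 0.96 in the third cluster, the last from 88 vehicle UMIs. In the Mmp8 and Ly6g cluster none of the 6 members with enough UMIs differed 2-fold, where 21.4% of 2918 genes did. The primary granule group had 1.76 in the Fcnb and Ms4a3 cluster, where 1 of the 8 vehicle cells held 300 of the 345 UMIs. With 8, 13 and 8 vehicle cells, these values rest on few cells of 1 library.

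The balance between S100a8 and S100a9 differed between the libraries in each of the 3 neutrophil clusters. S100a8 gave 40.1% (39.7 to 40.5) of the UMIs of the pair in the vehicle Ptprc cells and 50.4% (50.3 to 50.5) in the teriparatide Ptprc cells. In the Mmp8 and Ly6g cluster the share in single cells ran from 30.5 to 42.1% in 13 vehicle cells (median 36.6%) and from 37.0 to 56.3% in 142 teriparatide cells (median 48.7%), and 134 of the 142 lay above the highest vehicle cell. In the Fcnb and Ms4a3 cluster the medians were 43.0% and 51.2%, with 49 of 53 teriparatide cells above the highest of 8 vehicle cells, and in the Il1b and Cxcl2 cluster they were 39.6% and 49.0%, with 30 of 37 above. Cells of 1 library share its mice and its preparation, so these counts are not replicates. How far other pairs of genes shift between the libraries was not measured. Of 2918 single genes in the Mmp8 and Ly6g cluster, 21.4% differed 2-fold or more in level, and S100a8 (log2 ratio 0.91) and S100a9 (0.13) did not. That is a measure unlike the share of S100a8 in the pair. The share also differed within each sex, at 38.5% and 51.0% in male and 42.7% and 49.1% in female Ptprc cells. In the Mmp8 and Ly6g cluster, the 77 teriparatide cells within the UMI range of the vehicle cells gave 48.1%, against 36.6% in the 13 vehicle cells. The vehicle share there was 33.6% in 6 male and 41.4% in 2 female cells. The teriparatide share was 50.3% in 69 male and 49.0% in 16 female cells. The part of depth and sex in the difference was not tested. The shares among the UMIs of the pair in mesenchymal cells, 36.8% (29.8 to 44.3) and 49.2% (47.4 to 51.1), lay near the value of the Ptprc cells of their own library. In the Ccr2 and Ms4a6c cluster, where few cells held the pair, the shares were 79.2% of 260 vehicle UMIs and 51.0% in the teriparatide library.

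**Figure D4:**
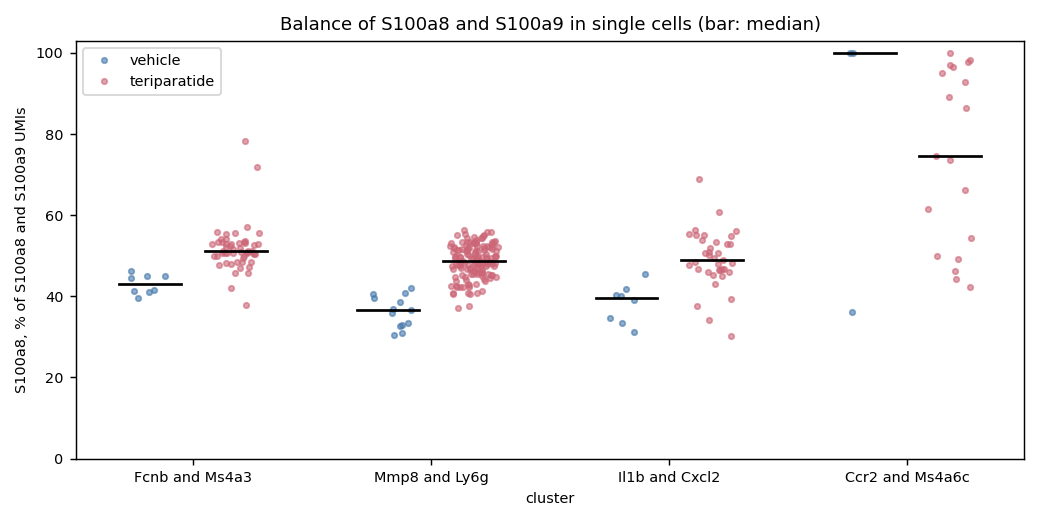
Share of S100a8 in the UMIs of S100a8 and S100a9 (percent) in single cells with at least 20 UMIs of the pair, by library. The 3 neutrophil clusters and the Ccr2 and Ms4a6c cluster are drawn, with bars for medians. Of the teriparatide cells of the neutrophil clusters, 49 of 53, 134 of 142 and 30 of 37 lie above the highest vehicle cell of the same cluster. Such counts were not made for other pairs of genes.

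In mesenchymal and erythroid cells the RNA of the 10 genes was scarce, and its sum was higher in the teriparatide library. The 10 genes summed to 43.5 CPM (38.7 to 48.8) in 424 vehicle and 256.6 CPM (248 to 265) in 604 teriparatide mesenchymal cells without a Ptprc UMI, and to 13.99 and 195.3 CPM in 51 and 162 erythroid cells. S100a8 and S100a9 led with 9.85 and 16.9 CPM in the vehicle and 105 and 109 CPM in the teriparatide mesenchymal cells, and erythroid cells of the teriparatide library held 72.6 and 79.1 CPM. As a share of the level in Ptprc cells, S100a8 stood at 0.0242% in the vehicle and 0.108% in the teriparatide mesenchymal cells and at 0.0744% in the teriparatide erythroid cells. The secondary granule genes summed to 7.79 and 34.9 CPM in the mesenchymal cells and the primary granule genes to 8.97 and 7.54 CPM. The Ptprc cells of the teriparatide library also held more of the 10 genes, and these made up 6.40% of all its UMIs against 1.01% in the vehicle library. Single mesenchymal cells held a part of this RNA: 1 vehicle cell held 64 of 296 UMIs (21.6%) and 2 teriparatide cells held 1167 of 3470 (33.6%). Among cells with at most 5 UMIs of the 10 genes the sums were 23.6 and 131.7 CPM. Free RNA, a second cell in the same droplet and RNA made by the cell itself cannot be told apart in these counts.

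Prtn3 stood out among the primary granule genes, because it was spread unevenly over the mesenchymal clusters. In the cluster led by Cxcl12, with Lpl, Igfbp5 and Adipoq, genes known from marrow stromal cells, it stood at 20.1 CPM in 25 of 123 vehicle cells and at 18.02 CPM in 13 of 82 teriparatide cells. Over both libraries that was 54 UMIs in 38 of 205 cells (18.5%) or 19.2 CPM (14.4 to 25.1), against 49 UMIs in 46 of 823 cells (5.59%) or 2.80 CPM (2.07 to 3.70) in the other mesenchymal clusters, although the median cell there was deeper, at 20454 against 13540 UMIs. The other 3 primary granule genes gave 3 UMIs in the Cxcl12 cluster and 57 elsewhere, so that Prtn3 was 94.7% of its primary granule UMIs, above its 34.0% in the Fcnb and Ms4a3 and its 57.4% in the Ccr2 and Ms4a6c cluster. In the other mesenchymal clusters this share ran from 21.6% in the Bglap to 80.0% in the Meg3 cluster. The interval of the Meg3 cluster (51.9 to 95.7, from 15 UMIs) overlaps that of the Cxcl12 cluster (85.4 to 98.9). The level was 20.1 CPM in male and 19.1 CPM in female cells of the cluster, and 19.3 against 3.04 CPM when the mitochondrial limit was set at 20%. When each cell was thinned to 2959 UMIs, Prtn3 was left in 7 of 202 cells (3.47%) of the cluster and 11 of 738 others (1.49%), near the level of single molecules. Among vehicle cells these shares were 3 of 121 (2.48%) and 6 of 268 (2.24%), and among teriparatide cells they were 4 of 81 (4.94%) and 5 of 470 (1.06%). The cells with Prtn3 carried the stromal genes of their cluster, with 26462 CPM of Cxcl12, 2574 CPM of Adipoq and 880.2 CPM of Lepr against 23932, 2245 and 1069.8 CPM in the cells without it. Both groups were drawn from this cluster, so their likeness in its genes was set in advance. The source of the Prtn3 UMIs was not tested. The clusters were not chosen for Prtn3, but the Cxcl12 cluster was singled out after its values were seen.

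**Figure D5:**
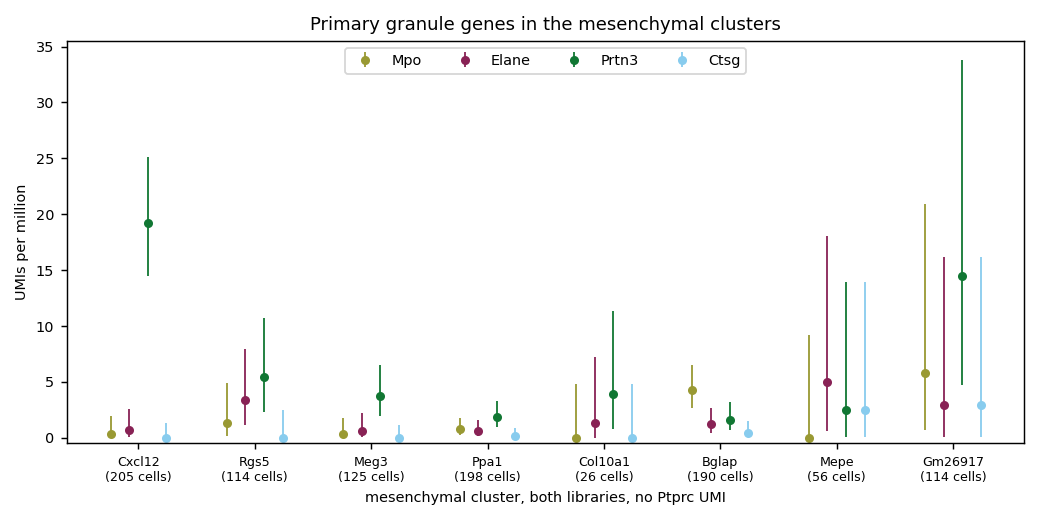
Level of the 4 primary granule genes in UMIs per 1000000 in the 8 mesenchymal clusters of both libraries, named by their leading gene, with exact Poisson 95% intervals. Prtn3 stands at 19.2 CPM in the Cxcl12 cluster, and the wide interval of the shallow Gm26917 cluster rests on 5 UMIs.

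Within single Ptprc cells the genes of a group went together, and the secondary granule genes also went with the S100 pair. Across the 478 cells of both libraries, which differ in depth and type, the Pearson correlation of log levels was 0.98 for S100a8 and S100a9, 0.97 for Camp and Ngp, 0.93 for Camp and Ltf, and 0.91 for Lcn2 and Ngp. Among the primary granule genes it was 0.85 for Elane and Mpo and 0.81 for Elane and Prtn3, and 36 of the 37 cells with at least 3 UMIs of Elane also had 3 of Prtn3. The reverse did not hold: of 77 cells with at least 3 UMIs of Prtn3, 36 had 3 or more of Elane. Between the secondary and the S100 group the correlation was 0.91 for Lcn2 and S100a9, 0.84 for Ngp and S100a9 and 0.75 for Ltf and S100a8. Lcn2 thus went with S100a9 as closely as with Ngp. Ltf and Prtn3 had a correlation of -0.25, and 22 of the 204 cells with Ltf held Prtn3 at 3 UMIs or more. Ltf and Ctsg met at that level in 1 cell.

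Other genes known from granules and from maturation also differed between the clusters. Of 23 such genes, 22 were measured in the Ptprc cells. Over all kept Ptprc cells 1 of these was higher 2-fold or more in the teriparatide library, none was lower, and the median log2 ratio was 0.12. Of 7728 genes in the same cells, 2.95% were higher and 7.49% lower. The exception was Prss57, a serine protease of the primary granules, at 1.37 (0.30 to 2.71) from 7 and 178 UMIs. Its ratio with the left-out barcodes was not computed, so no direction is given for it, as for the primary granule genes. From the first to the third neutrophil cluster, over both libraries, Prss57 stood at 85.4, 5.35 and 8.24 CPM and Serpinb1a, an inhibitor of the granule proteases, at 1259.5, 706 and 86.5 CPM. The regulator Cebpe stood at 505, 267 and 24.7 CPM and Gfi1, which represses the monocyte program, at 17.0, 2.92 and 0 CPM. The chemokine receptor Cxcr2 ran the other way, with 71.0, 311 and 1083 CPM. The gelatinase Mmp9 was also low in the first cluster, but vehicle cells had 54.7, 2895 and 1309 CPM of it and teriparatide cells 151, 1661 and 1858 CPM, so that the last step went down in one library and up in the other. Prss57, Gfi1, Cebpe, Cxcr2 and Mmp9 were among the markers that named and ordered the clusters. They were not kept out of the clustering, so their course was partly set in advance. Spi1, the gene of PU.1, differed little, with 360.0, 482 and 614 CPM. Ctsc, which activates the serine proteases, stood at no more than 32.9 CPM in the neutrophil clusters and at 696 CPM in the Ccr2 and Ms4a6c cluster.

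Among 7096 other genes seen in at least 10% of the Ptprc cells, those most like each group in their level across the 478 cells were named. For the primary granule group they were Gstm1 (Pearson r = 0.70), Ms4a3 (0.69), S100a1 (0.60), Prss57 (0.59) and Gatm (0.53). For the secondary granule group they were Wfdc21 (0.93), Pglyrp1 (0.89), Anxa1 (0.88), Adpgk (0.88) and Cd177 (0.84). For the S100 pair they were Wfdc21 (0.94), Pglyrp1 (0.94), Lrg1 (0.82), Anxa1 (0.82) and Ly6g (0.78). Pglyrp1, a peptidoglycan-binding protein, and Cd177, a surface protein, are themselves found in secondary granules. These values describe cells of 2 libraries that share depth and cell type.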

How the data were processed

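Single cells of 1 vehicle and 1 teriparatide library were measured with the v2 chemistry of the 10x platform. Per the labels, the authors used Cell Ranger 2.1.0 with the mm10 build, the matrix headers name software version 3.1.0, and the deposited values are raw counts per gene and barcode. No fold changes or other comparisons of the authors were used. Barcodes with 200 to 6000 genes and at most 10% mitochondrial UMIs were kept, as in the methods of the study. The libraries were joined in Seurat 5.3.0 (R 4.3.3) by canonical correlation analysis on 2000 variable genes without the 10 genes, and clustered on 20 principal components at a resolution of 0.6. Counts were then summed by library in Python 3.11.15 (scipy 1.17.1, pandas 2.3.3). CPM carry exact Poisson, shares Clopper-Pearson and ratios conditional binomial 95% intervals, which cover counting error only. A count of 0 allows up to 3 counts. In each count over all genes a gene entered with at least 50 UMIs over both sides and was called at 2-fold. The count over the 23 other genes of granules, maturation and regulation used the same fold but no such limit on UMIs. Scrublet (scanpy 1.11.5) marked 1 vehicle and 0 teriparatide cells as doublets, too few for the caller to have worked, so doublets were handled by the gene limit alone.

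The genes, lists and markers were chosen with earlier results of these data known. All 10 members are named, then 23 other genes of granules, maturation and regulation, and the 5 genes closest to each group by correlation. A cell was called male with a UMI of 1 of 4 Y-linked genes (Ddx3y, Eif2s3y, Uty, Kdm5d) and none of Xist. Promoters and their sequences are from RefSeq, where all 10 members were matched. The functions that compute sums, intervals and ratios were tested on simulated data. Alternatives were thinning to 2959 UMIs per cell, each sex alone, 2 or more Ptprc UMIs, hematopoietic clusters, a mean over cells, scaling by the median ratio, and a mitochondrial limit of 20%.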

Additional observations from a re-analysis of the deposited data

Results flagged for a closer look

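Barcodes that the limits left out carried RNA of the 10 genes. In the vehicle library 737 such barcodes held 3756 UMIs of them, or 1458 CPM (1412 to 1506), and 4 barcodes with at least 50 held 96.3% of these. In the teriparatide library 925 such barcodes held 77649 UMIs, or 17750.4 CPM, and 28 barcodes held 97.7% of them. These levels stand above the limit that a count of 0 allows, 1.16 CPM in the vehicle and 0.686 CPM in the teriparatide library. In the vehicle library 3574 of the left-out UMIs were of the primary granule genes, and in the teriparatide library 56151 were of S100a8 and S100a9.

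The log2 ratio of teriparatide to vehicle for the secondary granule genes was -0.21 in male and 0.58 in female Ptprc cells, and the counting intervals of both lie on opposite sides of 0. The difference between the sexes was not tested, since each library gives a single value per sex.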

How the results depend on the processing

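No paired analysis was possible because each condition has 1 library and the labels give no replicate numbers. With a mitochondrial limit of 20% no cluster led by Cxcl2 or Il1b formed. A cluster led by Retnlg, Mmp8 and Mmp9 held 219 cells, 22 of the vehicle and 197 of the teriparatide library. The step to the Il1b and Cxcl2 cluster was therefore not measured at that limit. Each of the 13 values over groups and classes stayed within its counting interval there, as did those of the 10 genes. Over all settings 70 such values stayed within it, 51 moved and 4 reversed. The cause of the moves was not tested. Values are log2 ratios of teriparatide to vehicle unless given in CPM or percent, with the vehicle first where there are 2. In male cells alone the primary granule group had 0.44, the secondary -0.21 and Ngp -0.27, and mesenchymal cells of the teriparatide library held 165 CPM of the 10 genes. In female cells alone the groups had 4.98, 0.58 and 1.01 (S100), the mesenchymal cells 25.7 and 152 CPM, the vehicle erythroid cells 30.6 CPM, and the primary and secondary groups led in 15.8% and 0% of teriparatide cells. After thinning, the secondary group had 0.18 and the S100 pair 0.76, the mesenchymal cells 66.03 and 212 CPM, the teriparatide erythroid cells 249 CPM, and the primary group led in 0% and 2.92%, the S100 pair in 100% and 96.25%, and the secondary group in 0.833% of teriparatide cells. Without the cell that Scrublet marked, the secondary and S100 groups had 0.0084 and 0.91. With 2 or more Ptprc UMIs the primary, secondary and S100 groups had 1.10, 0.082 and 0.99, and in hematopoietic clusters the last 2 had 0.069 and 0.95. As a mean over cells these had 0.29 and 0.81, the mesenchymal cells 60.8 and 2277 CPM and the erythroid cells 31.9 and 353 CPM. Scaling by the median ratio, which moves all genes by 0.30, gave 1.84, 0.33 and 1.23. Among cells with at most 5 UMIs of the genes, the mesenchymal sums were 23.6 and 132 CPM.

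The settings that follow were chosen after seeing the data. In the Fcnb and Ms4a3 cluster alone the 3 groups had 1.76, -0.56 and 0.53, and Ngp had -0.48. In the Mmp8 and Ly6g cluster the secondary and S100 groups had -0.056 and 0.47, and in the Il1b and Cxcl2 cluster 0.96 and 0.50. In the Ccr2 and Ms4a6c cluster the 3 groups had 1.03, 5.30 and 2.97 and Mpo had -0.057. Without an upper limit on genes they had 0.17, 0.16 and 1.09, with Mpo at -0.38 and Ctsg at -0.68. With no limits on barcodes they had -0.38, 0.16 and 1.10, with Mpo at -0.84, Prtn3 at -0.20 and Ctsg at -1.26. The 63 vehicle cells held 463 primary granule UMIs, and thinning left the log2 ratio of that group at 1.61.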
